A study of Homo sapiens with 20 samples.

Results

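In wild type K562 cells, the regions called from an ac4C antibody pulldown and the regions called from a control IgG pulldown were set against each other. The ac4C list held 45290 unique regions on 39481 transcripts of 9658 genes, and the IgG list held 45426 on 39338 transcripts of 9894 genes. Together they make 90716 of the 248767 regions in the 4 peak lists of the series, the others coming from NAT10 knockout cells. A region was a unique transcript, start and end, and it was called alone when it shared no base with any region of the other list. For regions found in both lists, the ac4C value was divided by the IgG value.

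The study used K562, a human erythroleukaemia line, with and without NAT10. Acetylated RNA immunoprecipitation sequencing (acRIP-seq) was done on ac4C antibody, normal rabbit IgG and input RNA. The wild type cells were the parental line with no treatment, the labels give 2 libraries for each of these arms, and the knockout cells carry the same 3 arms. The RNA was depleted of ribosomal RNA and fragmented before it met the bead-bound antibodies, per the labels' protocols. The wild type libraries are labelled total RNA and the knockout libraries polyA RNA. The labels do not say whether the 2 libraries came from separate cultures, or whether the knockout was 1 clone.

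N4-acetylcytidine (ac4C) is a modified cytidine that NAT10 writes in ribosomal RNA, in transfer RNA together with the adaptor THUMPD1, and, by several reports, in messenger RNA. An antibody pulldown enriches fragments that carry the mark, while IgG beads collect the fragments that stick without one.

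Each antibody had 1 peak list made from its libraries together, so there was 1 sample per group and no test across replicates. The measured value, column 7 of the lists, is the authors' fold enrichment at a summit. In the ac4C list 100% of these values were whole multiples of 1 step of 0.0309, and in the IgG list 100% were multiples of 0.0330, within 0.05 of a step. Where −log10 p was under 200, the authors' p-values were recovered to within 0.000511 (−log10) in the ac4C list and 0.000509 in the IgG list from the reads at the summit and 1 background, 31.4 reads for ac4C and 29.3 reads for IgG. Column 7 is thus the number of overlapping reads at a summit over a constant of the list. No local input level enters it, so RNA abundance is part of every value. Because each list has its own constant, the total RNA pulled down by ac4C antibody and by IgG cannot be compared. Intervals below are exact (95%) and cover counting error only, and isoforms share reads, so regions are not independent.

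NAT10 itself had 5 regions in each list. On isoform NAT10-201 (protein-coding, 3973 bases) the ac4C region covered bases 19 to 3930 and the IgG region bases 16 to 3933. Column 7 was 7.63 in the ac4C list (246 reads) and 7.72 in the IgG list (233 reads), a ratio of 0.989 (0.824 to 1.19). Over its 5 shared ac4C regions the ratio ran from 0.413 to 0.989, with a median of 0.855. The pair at 0.413 compares different summits, as did all 165 pairs at 0.5 or less, whose summits lay more than 25 bases apart. No NAT10 region was alone in the ac4C list and 1 was alone in the IgG list. THUMPD1, the adaptor for transfer RNA acetylation, had 6.86 in the ac4C list (221 reads) and 8.51 in the IgG list (257 reads), a ratio of 0.806 (0.670 to 0.968). That was the lowest of its 5 pairs, which ran up to 1.10 with a median of 0.979.

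The lists were nearly the same set of places. Of the ac4C regions, 42273 (93.3%) shared at least 1 base with an IgG region and 3017 were alone, 6.66% (6.43% to 6.90%). Of the IgG regions, 42492 (93.5%) were shared and 2934 were alone, 6.46% (6.23% to 6.69%). The share found only with the ac4C antibody was therefore about that found only with IgG. Most lone regions lay on genes that the other list also held, 2741 of the lone ac4C regions (90.9%) and 2415 of the lone IgG regions (82.3%). On the same transcript, the other list had a region for 35.6% of lone ac4C regions and 38.9% of lone IgG regions. On the longest transcript of each gene alone, 6.35% of ac4C regions and 9.81% of IgG regions were alone.

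Lone regions were weak ones. Their median column 7 was 2.07 in the ac4C list (66 reads) and 2.14 in the IgG list (64 reads), where the lowest summits had 50 reads and 47 reads. Shared regions had medians of 4.67 (150 reads) in the ac4C list and 4.62 (139 reads) in the IgG list. Below a column 7 of 2, 38.2% of ac4C regions and 33.4% of IgG regions were alone. From 3 to 5 the shares were 2.25% for ac4C and 2.56% for IgG. Among regions at 10 or more, 2 of 10158 ac4C regions and 13 of 10143 IgG regions were alone.

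**Figure D1:**
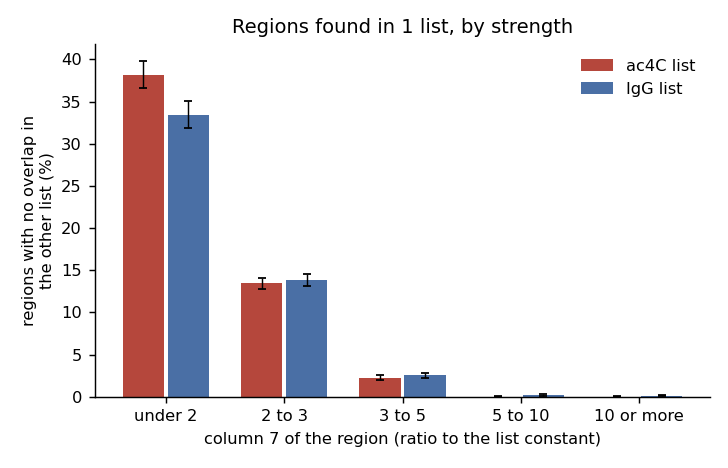
Share of regions with no overlap in the other list (y axis, %) by column 7 of the region (x axis), for the ac4C list and the IgG list, with exact 95% intervals for counting error. In both lists the share drops as regions get stronger, to 2 of 10158 (ac4C) and 13 of 10143 (IgG) in the last bin.

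At a column 7 of at least 5, 4 ac4C regions and 34 IgG regions were alone. The 4 ac4C regions came from 3 genes, RPS20 with 2 and PDIA3 and XRCC6 with 1 each. RPS20 encodes a protein of the small ribosomal subunit. Its retained-intron isoform RPS20-203 had a lone ac4C region at bases 14 to 513 with a column 7 of 12.9 (416 reads). The IgG list held 13 RPS20 regions on other isoforms, the strongest at 159. PDIA3, a disulfide isomerase of the endoplasmic reticulum (ER), had a lone ac4C region at bases 26 to 270 of the short isoform PDIA3-205, at 8.07 (260 reads), and IgG regions of up to 40.7 on other isoforms. XRCC6, the Ku70 subunit of DNA end joining, had one at bases 29 to 265 of XRCC6-207, at 6.18 (199 reads), and IgG regions of up to 31.4 elsewhere.

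The other genes of the 12 with the most significant lone ac4C regions were PHGDH, EPRS1, EXOSC5, SPAG7, SCAMP2, TRAP1, AC116407.3, EIF3I and FHL3. PHGDH starts serine synthesis, EPRS1 charges transfer RNA with glutamate and proline, EXOSC5 is an RNA exosome subunit, and TRAP1 is a mitochondrial chaperone. Their column 7 values ran from 4.42 (142 reads, FHL3) to 4.91 (158 reads, PHGDH). All 12 genes had an IgG region on some isoform, 2 of them on the same isoform as the lone region. Of the 12 isoforms, 10 were shorter than 1000 bases and 1 was annotated as protein-coding.

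The strongest lone IgG regions were higher than these and lay on ribosomal protein genes. The 8 named by the same ranking were RPL37A, RPL37, RPL28, RPL23A, RPL41, RPS19, RPS4X and RPL30, at 20.9 (RPL30, 633 reads) to 44.4 (RPL37A, 1345 reads). In all 8 the ac4C list had regions on other isoforms of the gene, with highest values between 195 and 409. All 8 isoforms were shorter than 1000 bases, and 4 of the 8 regions were narrower than 236 bases, the narrowest region of the ac4C list. The narrowest region of the IgG list was 233 bases, and 190 lone IgG regions fell below 236.

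Where both lists had a region, the values matched closely. Over 42273 shared pairs the median ratio of ac4C over IgG was 1.00, with an interquartile range of 0.918 to 1.09. A ratio of at least 1.5 was found in 165 pairs (0.390%), and one of at most 1/1.5 in 436 pairs (1.03%). The strongest shared regions lay on globin, ribosomal protein and ferritin transcripts. HBE1, the embryonic beta-type globin, had 629 in the ac4C list and 626 in the IgG list. HBG2, a fetal globin, had 585 in the ac4C list and 606 in the IgG list. FTL, the ferritin light chain, had 515 in the ac4C list and 516 in the IgG list. Across pairs the Spearman correlation was 0.969, and these points share cells, isoforms and transcript abundance.

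**Figure D2:**
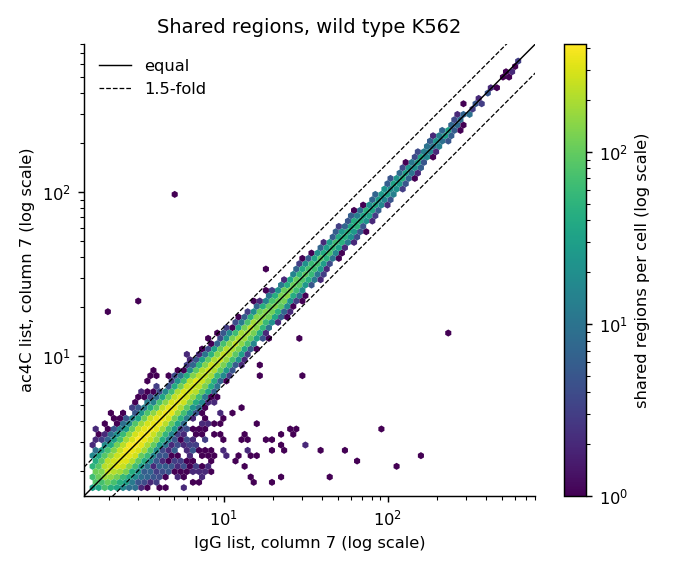
Column 7 of shared regions in the ac4C list (y axis) against the IgG list (x axis), both log scales, coloured by the number of regions, for 42273 pairs. Regions lie along the line of equality, and 165 pairs are at or above the upper 1.5-fold line and 436 at or below the lower one.

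The largest ratios came from regions that 1 list joined and the other split. RPS24-217, of a small-subunit protein gene, had the highest ratio, 19.4, from 98.6 in the ac4C list (bases 8 to 1841) and 5.08 in the IgG list (bases 675 to 1843). The same ac4C region also overlapped a second IgG region, whose value was 98.4. At summits matched within 25 bases on that transcript the ratios were 1.00 to 1.10. The next by rank were MKKS (9.68), NASP (7.63), DPP3 (2.19), TCF3 (2.13), NUP42 (2.11), LMNA (2.08) and UCK2 (2.05), and each had at least 2 IgG regions overlapping the ac4C region.

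The lowest ratio was at RPL22-206, of a large-subunit protein gene, with 2.53 in the ac4C list (bases 144 to 853) and 166 in the IgG list (bases 435 to 2278). A second ac4C region overlapping that IgG region had 156. ENO1 (0.0196), STAR (0.0352), ATP5MC3 (0.0387), B2M (0.0407), VAPA (0.0491), EEF1A1 (0.0609) and DUT (0.0677) followed, each with 2 ac4C regions overlapping 1 IgG region. Of the 12 pairs with a ratio of at least 2 and the 165 with one of at most 0.5, all had summits more than 25 bases apart. In 8 of the 12 and 150 of the 165, 1 region was more than 2 times as wide as the other.

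Matching summits within 25 bases left out those extremes by definition, since their summits were further apart. Summits with no partner that close were left out as well. The 50313 pairs of summits at most 25 bases apart (54.6% of the ac4C lines) had a median ratio of 1.01 and a range of 0.524 to 1.86. Of them 121 (0.240%) were at 1.5 or more and 142 (0.282%) at 1/1.5 or less, and 0 passed a factor of 2 in either direction. Most of those beyond 1.5 had few reads. Under 75 reads the SD of the log2 ratio was 0.24, against 0.26 from counting alone. With 1000 or more reads the SD was 0.10, against 0.05 from counting, and none of the 3105 pairs passed 1.5 in either direction (range 0.765 to 1.34).

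**Figure D3:**
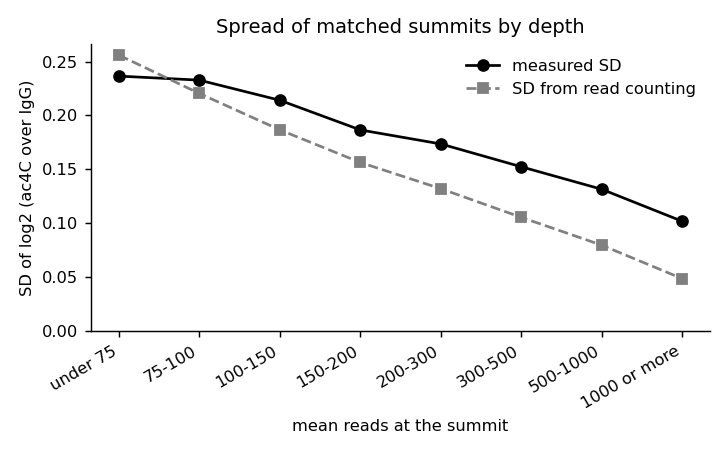
SD of the log2 ratio of ac4C over IgG at matched summits (y axis) by mean reads at the summit (x axis), measured and as read counting alone gives it. The measured SD drops from 0.24 under 75 reads to 0.10 at 1000 or more, where counting alone gives 0.05.

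Counted by gene, 9443 genes had regions in both lists, 215 in the ac4C list only (2.13% of 10109) and 451 in the IgG list only (4.46%). Genes with at least 1 lone region numbered 1919 of the 9658 in the ac4C list (19.9%) and 2202 of the 9894 in the IgG list (22.3%). On the longest transcript of each gene, the genes in the ac4C list only numbered 357. Chosen after their values were seen, the strongest gene of the ac4C-only group was TMEM213 at 3.77 (121 reads), with 0.00 CPM (counts scaled to library size) in both wild type RNA-seq libraries. METTL16, a methyltransferase for N6-methyladenosine, was also in that group, at 3.34 (107 reads). Both METTL16 and TMEM213 regions overlapped a region in each knockout list, METTL16 at 22.1 in knockout ac4C and 25.1 in knockout IgG. The strongest of the IgG-only group was SNHG9, a host gene of small nucleolar RNA, at 9.27 (280 reads).

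Genes found in 1 list were lowly expressed. Median RNA levels in the 2 wild type RNA-seq libraries were 8.28 and 7.78 CPM for the ac4C-only genes, 7.22 and 6.92 CPM for the IgG-only genes, and 44.7 and 42.2 CPM for genes in both lists. Genes with no region but at least 20 counts in each library had medians of 9.91 and 9.35 CPM. Ribosome footprints over RNA (a ratio of CPM) had medians of 0.688 and 0.721 in ac4C-only genes, 0.637 and 0.671 in IgG-only genes and 0.999 and 1.03 in genes of both lists. With at least 20 counts required in each RNA library, these rest on 119, 213 and 7351 genes. In the genes with no region the medians were 0.649 and 0.719, over 2742 genes. Over 8783 genes, the strongest column 7 of a gene followed its RNA CPM per kilobase with a Spearman correlation of 0.572 for ac4C and 0.565 for IgG. Between ac4C and IgG it was 0.987, and these values share cells and transcript abundance.

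The median ratio over a gene's shared regions was at least 1.5 for 8 of 9369 genes (0.0854%) and at most 1/1.5 for 48 (0.512%). The 8 were AC002470.2, MARCKS, AC018755.3, WDR24, AD000671.1, PAQR7, TPTEP2-CSNK1E and TCTN2, named after their values were seen, and each rested on 1 pair. MARCKS, a substrate of protein kinase C, had a ratio of 1.85 from its 1 pair, but its strongest values were 34.8 in the ac4C list and 33.4 in the IgG list.

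By transcript biotype, 61.1% of ac4C regions and 58.5% of the lone ac4C regions were on protein-coding transcripts. There the lone shares were 6.37% (6.09% to 6.67%) for ac4C and 6.17% (5.89% to 6.46%) for IgG. On transcripts annotated for nonsense-mediated decay they were 8.08% (7.31% to 8.90%) for ac4C and 6.10% (5.43% to 6.83%) for IgG, and on retained-intron transcripts 7.15% (6.55% to 7.79%) for ac4C and 5.88% (5.33% to 6.47%) for IgG. Long non-coding RNAs (lncRNAs) ran the other way, with 6.87% (5.79% to 8.08%) for ac4C and 12.4% (10.97% to 13.9%) for IgG. Processed transcripts had 6.11% (5.37% to 6.92%) for ac4C and 6.62% (5.85% to 7.46%) for IgG. The median ratio at shared regions was 1.02 for nonsense-mediated decay, 1.02 for retained introns, 1.00 for processed transcripts, 0.997 for protein-coding transcripts and 0.963 for lncRNAs. These medians lie within the interquartile range of all pairs, but that range describes single pairs and cannot judge a shift of a median. With 1 list per antibody the differences had no replicate check.

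Along protein-coding transcripts, the share of regions that were alone was higher toward both ends. Transcripts were cut into 3 equal parts, and regions placed by their midpoint. A region that spans most of a transcript therefore counts in the middle part. In the ac4C list shared regions had a median width of 676 bases and lone ones 287 bases. Position and width are thus not separated in these shares. In the first part 10.7% of ac4C regions and 7.99% of IgG regions were alone. In the middle part 3.81% of ac4C and 3.67% of IgG regions were alone, and in the last part 10.3% of ac4C and 11.5% of IgG regions. The lone regions themselves were spread more evenly, with 508, 649 and 608 for ac4C and 375, 617 and 723 for IgG. The middle part held most regions of any kind, 17029 for ac4C against 4763 in the first part and 5895 in the last. In the last 10% of the length, 16.1% (13.6% to 18.8%) of ac4C regions and 20.9% (18.3% to 23.8%) of IgG regions were alone. At matched summits the ratio was lower near the transcript end. In bins of 10% of the length, its median was between 1.01 and 1.02 in bins 1 to 7, then 0.996 in bin 8, 0.968 in bin 9 and 0.920 in bin 10. In bin 10, 0 of 2043 pairs reached 1.5 and 18 were at or below 1/1.5. Measured in bases, it was 0.879 for the 288 summits within 150 bases of the transcript end and 1.01 for the 429 within 150 bases of the start. Where the coding sequence begins and ends was not analysed here.

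**Figure D4:**
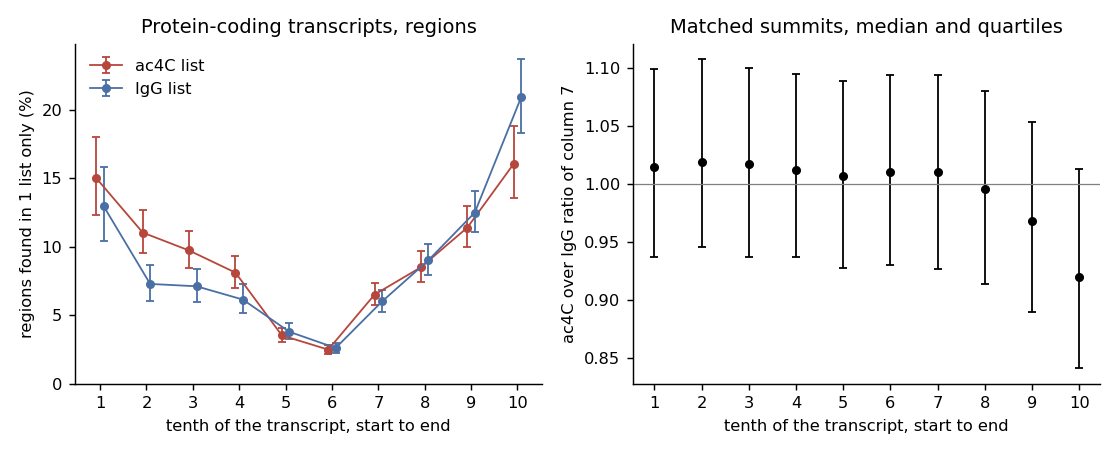
Left, share of regions in 1 list only (y axis, %) by 10% bin of the protein-coding transcript (x axis), ac4C list and IgG list, with exact 95% intervals. Regions are placed by midpoint, so those spanning most of a transcript fall in the middle bins. Right, ac4C over IgG ratio of column 7 at matched summits, median with quartiles, which drops to 0.920 in the last bin.

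Globins, the products that erythroid cells make in bulk, had no lone region in either list. With 8 genes the interval was 0% to 36.9%, which holds the all-gene shares of 19.9% for ac4C and 22.3% for IgG. Of 10 listed genes 8 had regions, and their gene ratios ran from 0.964 to 1.04 (median 0.995, against 0.984 over all 9369 genes). HBA2, an alpha globin, had 221 in the ac4C list and 213 in the IgG list. HBG1, the other fetal globin, had 536 in the ac4C list and 559 in the IgG list. HBZ, the embryonic zeta globin, had 280 in the ac4C list and 289 in the IgG list.

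Heme synthesis genes had a median gene ratio of 0.995 over 20 genes. PPOX, an enzyme late in the pathway, was the 1 gene of 20 with a lone ac4C region (5.00%, against 19.9% of all genes), at 2.53 (81 reads). A lone IgG region was found on 8 of 21 (38.1%, against 22.3%). Both all-gene shares lie within the intervals of this list, 0.127% to 24.9% for ac4C and 18.1% to 61.6% for IgG. ALAS2, the erythroid enzyme of the first step, had 6.03 in the ac4C list and 5.67 in the IgG list. FECH, which inserts iron into the ring, had 4.79 in the ac4C list (154 reads) and 3.66 in the IgG list (110 reads) at its strongest region, but a gene ratio of 1.00 over 8 pairs.

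Among erythroid regulators, 7 of 26 had a lone ac4C region (26.9%, against 19.9% of all genes) and 8 of 27 a lone IgG region (29.6%, against 22.3%). Both all-gene shares lie within the intervals of this list, 11.6% to 47.8% for ac4C and 13.8% to 50.2% for IgG. The lone ac4C regions with the highest values were on CHD4 (2.81), RUNX1 (2.16), IGF2BP1 (2.16) and KLF13 (2.10). BCL11A, a repressor of fetal globin, had the highest gene ratio, 1.30 from 1 pair, with 5.22 in the ac4C list (168 reads) and 4.02 in the IgG list (121 reads). LIN28B, which blocks let-7 maturation, had the lowest, 0.758 over 4 pairs. The key factor GATA1 had 3 regions in each list, at most 70.3 in the ac4C list and 68.6 in the IgG list.

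Of the regions on red cell membrane genes, 23 of 226 in the ac4C list (10.2%, against 6.66% of all regions) and 10 of 212 in the IgG list (4.72%, against 6.46%) were alone. Of the 23, ADD2 held 5, ANK1 4, DMTN 4 and ADD1 3. The lone ac4C regions lay on 10 of 26 genes (38.5%, with an interval of 20.2% to 59.4%, against 19.9% of all genes). That interval is not adjusted for the number of gene lists looked at. The lone IgG regions lay on 8 of 27 genes (29.6%, against 22.3%). Genes with a lone ac4C region included the glucose transporter SLC2A1 (3.21, 103 reads), the blood group gene RHD (2.60, 83 reads), GYPB, a glycophorin (2.35, 75 reads), and EPB41, protein 4.1 of the membrane skeleton (2.29, 73 reads). The median gene ratio was 0.992.

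All 79 cytosolic ribosomal protein genes had regions in both lists. Lone regions were 4 of 716 for ac4C (0.559%, against 6.66% of all regions) and 17 of 732 for IgG (2.32%, against 6.46%). They lay on 3 genes for ac4C, RPS20, RPL15 and RPL32 (3.80%, against 19.9% of all genes), and on 14 for IgG (17.7%, against 22.3%). These comparisons are not matched for strength. Among all regions with a column 7 of 10 or more, 0.0197% in the ac4C list and 0.128% in the IgG list were alone. Gene ratios ran from 0.872 (RPLP2) to 1.07 (RPS9), with a median of 0.988. RPS12 had 532 in the ac4C list and 559 in the IgG list, and RPLP1 had 527 in the ac4C list and 552 in the IgG list. Translation factors had a median of 1.00 over 44 genes, from 0.878 (EIF5B, which joins the subunits) to 1.11 (EIF3I, an initiation factor subunit). Lone ac4C regions lay on 6 of 44 of them (13.6%, against 19.9% of all genes) and lone IgG regions on 12 of 45 (26.7%, against 22.3%). The ac4C ones were led by EIF3I (4.45), EEF1A1 (2.50), EIF4A2 (2.32) and EEF2K (2.19).

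ER chaperone and stress genes had lone ac4C regions on 3 of 23 genes (13.04%, against 19.9% of all genes), PDIA3, DNAJB9 (3.28) and HERPUD1 (2.19), and lone IgG regions on 5 of 23 (21.7%, against 22.3%). By region, 3 of 134 were alone for ac4C (2.24%, against 6.66% of all regions) and 9 of 139 for IgG (6.47%, against 6.46%). The median gene ratio was 0.998. Replication-dependent histones had a median of 1.01 over 41 genes, and the 1 lone ac4C region, of 42 genes (2.38%, against 19.9% of all genes), lay on H3C12 (3.09, 99 reads), a gene with no IgG region. Lone IgG regions lay on 2 of 43 histone genes (4.65%, against 22.3%). RNA modification enzymes had a median of 0.978 over 35 genes, with lone ac4C regions on 6 of 36 genes (16.7%, against 19.9% of all genes) and lone IgG regions on 10 of 37 (27.0%, against 22.3%). Their lone ac4C regions included METTL16, CTU2 (3.25), ELP3 (2.63) and ADAR (2.23), the last an adenosine deaminase. VIRMA, a subunit of the N6-methyladenosine writer, had the lowest gene ratio of any list member, 0.696 over 2 pairs.

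RNAs of the mitochondrial genome gave 15 regions in each list with none alone. The interval was 0% to 21.8%, which holds the 6.66% of all ac4C regions and 6.46% of all IgG regions. MT-ND3 was highest at a ratio of 1.12 (883 reads for ac4C, 738 for IgG), and MT-ND5 lowest at 0.739 (315 reads for ac4C, 400 for IgG). Small structured RNAs had regions for 6 of 26 genes (7 identifiers, since RMRP has 2), again with none alone (interval 0% to 41.0%). That interval holds the all-gene shares of 19.9% for ac4C and 22.3% for IgG. RN7SL1, the RNA of the signal recognition particle, had 135 in the ac4C list and 134 in the IgG list. RPPH1, the RNA of ribonuclease P, had 18.6 in the ac4C list (601 reads) and 15.8 in the IgG list (478 reads), a ratio of 1.18 (1.04 to 1.33).

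Host genes of small nucleolar RNA and other nuclear non-coding genes had a median of 0.985 over 20 genes, from 0.895 (SNHG6) to 1.06 (SNHG16). Lone ac4C regions lay on 3 (15.0%, against 19.9% of all genes), SNHG12 (2.16), SNHG15 (1.73) and SNHG29 (1.70), and lone IgG regions on 4 (20.0%, against 22.3%). The nuclear lncRNA MALAT1 had 65.1 in the ac4C list and 64.6 in the IgG list. Megakaryocyte genes had regions for 5 of 13 genes, with a median of 0.868. Lone ac4C regions lay on 1 of the 5 (20.0%, against 19.9% of all genes), the integrin ITGA2B (2.19, 70 reads), and lone IgG regions on 0 (against 22.3%). Granulocyte and monocyte genes had regions for 5 of 13, with a median of 1.00. Lone ac4C regions lay on 0 of these 5 (against 19.9%) and lone IgG regions on 1 (20.0%, against 22.3%). In each of the 14 lists, 0 members had a gene ratio of at least 1.5 or of at most 1/1.5 (0.0854% and 0.512% of all genes).

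**Figure D5:**
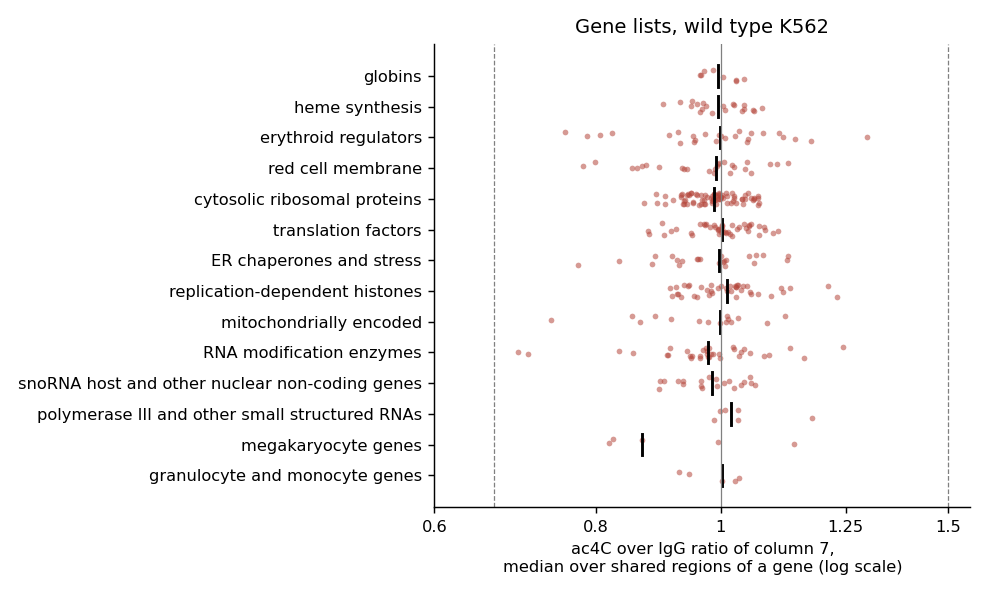
Ratio of ac4C over IgG for each gene (points, x axis, log scale, median over the gene's shared regions) in 14 gene lists, with the list median as a bar and dashed lines at 1.5-fold. All points lie between the dashed lines, from 0.696 (VIRMA) to 1.30 (BCL11A).

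The NAT10 knockout lists gave a second view of the same regions, at lower depth per step (background of 8.59 reads for knockout ac4C and 6.03 for knockout IgG). Of the regions alone in the wild type ac4C list, 36.0% (34.3% to 37.8%) overlapped a knockout ac4C region and 28.2% (26.6% to 29.9%) a knockout IgG region. For regions that wild type ac4C shared with IgG, 69.9% overlapped knockout ac4C and 64.2% knockout IgG. Regions alone in the wild type IgG list overlapped more, 45.7% (43.9% to 47.6%) with knockout ac4C and 43.8% (42.0% to 45.6%) with knockout IgG. Overlap with knockout ac4C and not with knockout IgG was found for 10.7% (9.62% to 11.9%) of the lone ac4C regions, 7.36% (6.44% to 8.37%) of the lone IgG regions and 9.06% of the shared ones. Of the 12 named lone ac4C regions, 7 overlapped knockout ac4C and 7 knockout IgG, and all 8 named lone IgG regions overlapped both. Treated the same way, knockout ac4C regions were alone in 20.4% of cases (16427 of 80709), against 6.66% in wild type, and knockout IgG regions in 12.2%, against 6.46% in wild type. The median ratio was 0.992 in the knockout and 1.00 in wild type, but knockout pairs were more spread. Their interquartile range was 0.831 to 1.19, against 0.918 to 1.09 in wild type. The Spearman correlation across pairs was 0.860 in the knockout and 0.969 in wild type. Knockout regions were also narrower, with a median width of 306 bases against 632 for ac4C, and 296 against 623 for IgG. Genotype, labelled molecule, depth and region width differ together here and cannot be told apart.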

How the data were processed

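The authors deposited 1 narrowPeak list per genotype and antibody, called against input and merged over libraries as far as the peak names in the deposited files say. The submitters' processing notes name Bowtie2, MACS2, bedtools, ChIPseeker and the build GRCh38.p13, with no settings. Column 7 is the authors' fold enrichment (a ratio), and columns 8 and 9 are the authors' −log10 p-values and q-values. Positions are bases of a transcript, counted from 1. Lines with the same transcript, start and end were merged, keeping the highest column 7. An ac4C region was paired with the IgG region of largest overlap. RNA-seq and Ribo-seq values are deposited whole-number read counts, scaled here to CPM. Wild type totals were 10388717 and 12725302 for RNA and 1220308 and 911336 for footprints. Knockout counts were not used here.

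With 1 list per group no test was run. Shares have exact Clopper-Pearson intervals, and ratios have exact intervals from the reads at both summits (Python 3.11.15, pandas 2.3.3, SciPy 1.17.1). The overlap and ratio steps were tested on simulated data. The members, the gene lists and the rules were chosen with earlier results of these data known. Named genes were NAT10, the 12 lone ac4C and 8 lone IgG genes with the highest column 9, the 8 highest and 8 lowest ratios among regions at or above the median column 9 of the ac4C list, and up to 4 lone ac4C members per list. Alternatives were a column 9 of at least 5, the longest transcript, 50% overlap, equal list lengths, mean column 7, another partner and a threshold of 2; matched summits, 90% overlap and equal minimum widths were added after seeing the data.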

Additional observations from a re-analysis of the deposited data

How the results depend on the processing

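Every alternative left the ac4C and IgG lists mostly shared, with a median ratio between 0.965 and 1.01. On the longest transcript of each gene, lone regions were 6.35% (ac4C) and 9.81% (IgG), the median ratio was 0.965, 29 pairs were at 1.5 or more and 252 at 1/1.5 or less, 357 genes had ac4C regions only, and 64.4% of lone ac4C regions were protein-coding. At 50% overlap, 6.98% and 6.78% were alone, and 32.5% of lone ac4C regions overlapped knockout ac4C (32.1% at a column 9 of at least 5). With regions of at least 236 bases, 6.99% and 6.09% were alone. The mean of column 7 gave a median of 1.01 and 328 pairs at 1.5 or more, and the highest IgG partner gave 109. A threshold of 2 left 12 pairs above and 165 below. Matched summits gave a median of 1.01 and 142 pairs at 1/1.5 or less. At 90% overlap the median was 1.00, with 30 pairs above 1.5 and 33 below 1/1.5. Lone ac4C regions had 0.444 times the median column 7 of shared ones, and 0.131 times the median column 9. Genes with a lone ac4C region had 1.19 times the median RNA level of genes in both lists, but 1.04 times among genes with at least 20 counts and 0.832 times where the longest transcript carried the region, which turns the direction. The cause was not tested, except that the last settings use fewer regions. No paired analysis was possible because each antibody had 1 list of pooled libraries, and no library could be left out. The planned comparison of region sequences was not run, since no transcript sequence was used here. The weakest summits had 50 reads (ac4C) and 47 reads (IgG), and regions below that depth were not detectable.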

Other observations

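RNA-seq and the pulldown lists ranked the beta-type globin locus very differently. HBE1 had 2.41 and 0.786 CPM in the 2 wild type RNA-seq libraries, while its column 7 was the highest of the ac4C list (629) and 626 at the paired IgG region. AC104389.6, whose values stood at 528 in the ac4C list and 534 in the IgG list, had 0.00 CPM in both RNA-seq libraries. RPS12, with a similar 532 in the ac4C list and 559 in the IgG list, had 1356 and 1496 CPM. The labels do not say how reads of overlapping or near-identical genes were counted.

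Markers fixed for the line gave regions in both lists. The erythroid factor KLF1 had 62.5 in the ac4C list and 62.5 in the IgG list. CD3E, MS4A1, CD14, MPO, COL1A1, COL1A2 and CDH1 had no region in either list. EPCAM, an epithelial surface protein, had 4 regions in each list, up to 13.04 in the ac4C list and 16.1 in the IgG list, and 49.0 and 40.6 CPM.

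Some regions ran past the annotated end of their transcript, 158 in the ac4C list (0.349%, by up to 124 bases) and 208 in the IgG list (0.458%, by up to 179 bases).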
